A study of Mus musculus with 11 samples.

Results

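Rora and Rorb, the genes of the ROR nuclear receptors RORalpha and RORbeta, were followed through 11 mouse RNA-seq libraries. They were picked by symbol and are 2 of the 24411 gene symbols in each table of read counts. Wild-type animals and animals labelled Bmal1-/-, 8 to 10 weeks of age, were the donors. Neurospheres, floating clusters grown from cells of the subventricular zone (SVZ) in medium with EGF and heparin, gave 3 wild-type and 3 Bmal1-/- libraries. Corpus callosum taken directly from the brain gave 3 wild-type and 2 Bmal1-/- libraries. No treatment and no hour of collection was given, sex and strain were not stated, and nothing said whether libraries of one group came from separate animals, so that every p-value is read against a spread over libraries that can be technical in origin.

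The ROR receptors bind DNA as single molecules, at an AGGTCA core preceded by a stretch rich in A and T, and switch genes on. The REV-ERB receptors, made from Nr1d1 and Nr1d2, bind the same elements and switch the same genes off. In the circadian clock this pair of opposed receptors acts on the gene of BMAL1 (Arntl), while BMAL1 with CLOCK or NPAS2 acts through E-boxes on the genes of the REV-ERB receptors, the PER and CRY proteins and, in some tissues, the RORs. RORalpha is known in brain for its part in Purkinje cell maturation, where its loss gives the staggerer mouse, and is also made in astrocytes and thalamic neurons. RORbeta is known from layer 4 of the cortex, the retina and the pineal gland, and from neural progenitors.

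Rora (ENSMUSG00000032238.17) lies on the plus strand at chr9:68653786-69388246 (GRCm38, GENCODE M21), a span of 734461 bases with 6 annotated transcripts, 2 of them coding. Its merged exons add up to 13071 bases, of which 82 (0.627%) are overlapped by the opposite-strand gene Gm15511, which is not among the counted symbols. Rorb (ENSMUSG00000036192.15) lies on the minus strand at chr19:18930605-19111196, a span of 180592 bases with 5 transcripts, 3 of them coding, and 11076 bases of merged exons with no gene opposite. Of all 50-base stretches of their transcripts, 0.0459% for Rora and 0.0271% for Rorb also occur in a transcript of another gene. Counts are per gene, so the transcripts from different starts were not separated.

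The 250 bases before each RefSeq start (GRCm38.p6) are shown because RefSeq lists 2 starts for Rorb and a single one for Rora, and because clock factors act on such windows. They are written 5′ to 3′ on the strand of the gene, in lower case where no searched motif was found. The Rora window is chr9:68653536-68653785, the window of the outer Rorb start is chr19:19111197-19111446 and that of the inner Rorb start is chr19:19001118-19001367.
Rora: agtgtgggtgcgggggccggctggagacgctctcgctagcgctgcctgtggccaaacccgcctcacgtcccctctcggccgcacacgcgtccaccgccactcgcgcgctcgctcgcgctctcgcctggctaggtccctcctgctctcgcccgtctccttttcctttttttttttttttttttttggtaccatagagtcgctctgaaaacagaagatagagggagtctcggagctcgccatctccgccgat
Rorb outer start: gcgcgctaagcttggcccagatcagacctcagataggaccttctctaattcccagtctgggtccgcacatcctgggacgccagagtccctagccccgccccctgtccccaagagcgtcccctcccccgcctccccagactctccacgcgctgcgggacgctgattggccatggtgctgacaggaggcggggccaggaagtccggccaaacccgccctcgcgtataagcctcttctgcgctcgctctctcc
Rorb inner start: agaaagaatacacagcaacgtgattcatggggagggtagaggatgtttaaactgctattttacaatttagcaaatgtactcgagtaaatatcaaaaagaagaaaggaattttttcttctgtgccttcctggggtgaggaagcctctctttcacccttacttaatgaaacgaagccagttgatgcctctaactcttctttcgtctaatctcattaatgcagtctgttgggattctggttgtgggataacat
The first window held 61.2% G and C with 26 CG pairs, the second 66% with 18 CG pairs, and the third 39.2% with 4 CG pairs. Both strands were searched for the E-box CACGTG, the D-box TTATGNAA, the core AGGTCA and the full ROR element, which ends in that core or in GGGTCA. None of these letters stood in any of the 3 windows. Among 32851 windows of that length in the table, 6.02% held the E-box, 3.07% the D-box, 14.02% the core and 0.332% the full element.

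Matches were found before the starts of 4 of 7 clock and REV-ERB genes: Nfil3, Nr1d2, Cry1 and Clock. They are shown with up to 20 bases on each side and the matched letters in capitals, which mark the AGGTCA core on either strand in Nfil3, Nr1d2 and Clock and the E-box in Cry1. Their places are chr13:52981040-52981071, chr14:18239158-18239203, chr10:85185089-85185134 and chr5:76303596-76303641, all for genes on the minus strand.
Nfil3, 12 bases before the start: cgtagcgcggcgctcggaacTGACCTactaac
Nr1d2, 77 bases before the start: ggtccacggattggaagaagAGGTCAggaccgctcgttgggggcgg
Cry1, 60 bases before the start: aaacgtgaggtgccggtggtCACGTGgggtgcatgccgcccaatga
Clock, 119 bases before 1 of its starts: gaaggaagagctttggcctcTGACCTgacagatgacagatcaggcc
The windows of Arntl, Npas2 and Nr1d1 held none of the 4 motifs, and the full ROR element was in none of the 7 genes' windows. A match is a run of letters and was not tested for binding.

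Libraries held 17450270 to 19717848 counts on genes. There 3 counts, a mark for low levels and not a filter, equalled 0.152 to 0.172 CPM, the count scaled to the total of its library. Unmapped reads were 7.77 to 8.46% of the callosum libraries and 13.7 to 22.6% of the neurosphere libraries. Replicate 1 of the Bmal1-/- neurospheres stood apart with the 22.6%, against at most 16.2% in the other 5. In the Bmal1-/- groups Arntl was not lower: it ranged from 38.2 to 49.4 CPM in wild-type and 40.5 to 48.9 in Bmal1-/- neurospheres, and from 32.5 to 39.3 and 32.3 to 40.3 in callosum. Which stretch of Arntl was deleted is not stated, so a whole-gene count checks nothing here, and the groups are those of the labels. Neurospheres had the marker sum of neural stem and progenitor cells (12 genes) at 4700 to 7917 CPM against 316 to 466 in callosum, while 12 myelin and oligodendrocyte genes summed to 1531 to 2579 CPM against 22388 to 34753. The callosum libraries also held 14994 to 20885 CPM of 12 genes of cortical projection neurons, which summed to 43.1 to 68.7 CPM in neurospheres, where Neurod6 had no count in any library. In bulk RNA, fewer cells of a type and less RNA per cell cannot be told apart.

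Both receptor genes were far lower in callosum than in neurospheres, Rorb by more than Rora. CPM values are on one scale over all 11 libraries, set by the trimmed mean of M-values (TMM). Rora stood at 52.1, 73.4 and 88.7 CPM in the wild-type neurospheres, while the Bmal1-/- neurospheres had 27.9, 66.4 and 64.4 CPM. Its callosum levels were 13.6, 8.81 and 9.71 CPM for wild type, with 8.73 and 8.29 CPM for Bmal1-/-. The lowest neurosphere library, replicate 1 of the Bmal1-/- group, was still above the highest callosum library.

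Rorb stood at 224.3, 272.8 and 255.6 CPM in the wild-type neurospheres and at 147.9, 190.5 and 208.0 CPM in the Bmal1-/- neurospheres. Its callosum values were 7.71, 7.02 and 6.91 CPM in wild type and 5.45 and 3.87 CPM in Bmal1-/-. Neurosphere and callosum values did not overlap, and within each source the Bmal1-/- libraries lay below all wild-type ones. Such a separation by genotype is weak evidence with so few libraries. Its exact two-sided permutation p can be no smaller than 0.1 in neurospheres and 0.2 in callosum. How many of all genes separate likewise was not counted. The callosum values rest on 56 to 112 counts per library for Rorb and 120 to 197 for Rora. Counting error alone gives such a count a 95% Poisson interval of about 14 to 27% to either side, against 2.5 to 7.9% in neurospheres.

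**Figure D1:**
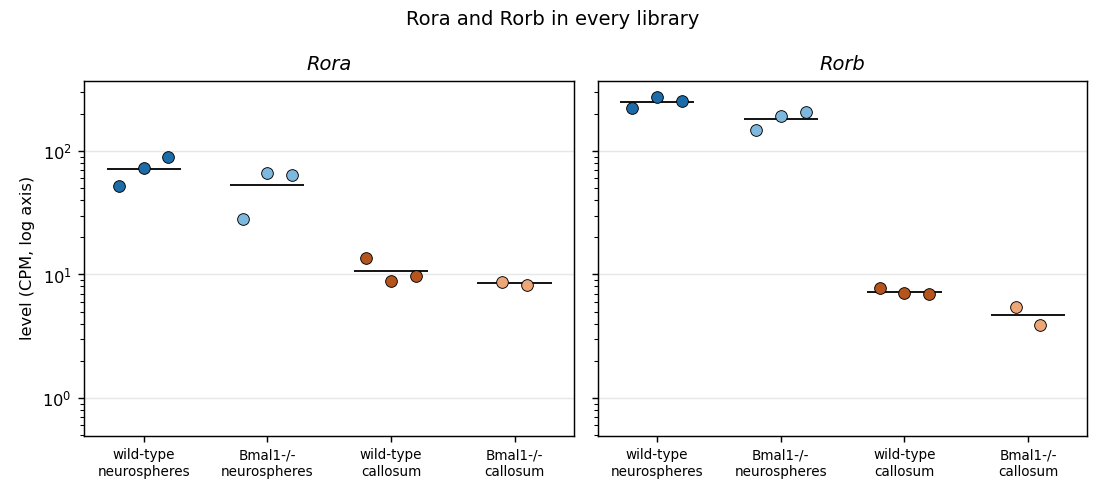
Level of Rora (left) and Rorb (right) in each library, in CPM on a log axis; points are libraries and bars are group means. The Rorb points fall from 147.9 to 272.8 CPM in neurospheres to between 3.87 and 7.71 CPM in callosum, and Rora from 27.9 to 88.7 to between 8.29 and 13.6.

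For Rora the order of group means was wild-type neurospheres (71.4 ± 18.4 CPM, SD, n = 3), Bmal1-/- neurospheres (52.9 ± 21.7, n = 3), wild-type callosum (10.7 ± 2.52, n = 3) and Bmal1-/- callosum (8.51 ± 0.316, n = 2). Only the step between the sources passed a test, since both genotype steps stayed above the threshold. Rorb followed the same order, with 250.9 ± 24.6, 182.1 ± 30.9, 7.21 ± 0.433 and 4.66 ± 1.12 CPM. Per kb of merged exon, the scale on which the 2 genes can be compared, Rorb was the higher in neurospheres, at 22.7 against 5.46 CPM per kb in wild type and 16.4 against 4.05 in Bmal1-/-. In callosum the order turned, with Rorb at 0.651 against 0.818 for Rora in wild type and 0.421 against 0.651 in Bmal1-/-.

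Between the sources in wild type, Rorb fell by 5.07 ± 0.13 (log2 ± SE, adjusted p = 3.10e-09, edgeR), which is 33.7-fold lower in callosum with a 95% interval of 27.5 to 41.1. Rora fell by 2.69 ± 0.23 (adjusted p = 2.51e-06), or 6.47-fold, with an interval of 4.52 to 9.25. So large a share of genes differs between cultured spheres and tissue that being called lower says little: 43.8% of the 14733 genes tested were. The size of the Rorb difference was rarer, since 2.74% of the tested genes had a lower log2 value, against 13.8% for Rora. With offsets that remove each library's trend over transcript length, the log2 differences were -4.42 for Rorb and -1.98 for Rora, both still past the threshold.

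Between the sources in the Bmal1-/- libraries, Rorb fell by 5.24 ± 0.31 (adjusted p = 2.47e-05, edgeR, 37.7-fold lower, interval 22.6 to 63.0). Rora fell by 2.58 ± 0.42 (adjusted p = 0.00149, interval 2.96 to 12.1-fold lower). Here 37.5% of 14883 genes were called lower, 2.92% had a log2 value below that of Rorb and 15.7% below that of Rora. Each of these calls held without any 1 library. Culture, growth factors, tissue make-up and library handling change together with the source and cannot be told apart from it.

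No genotype difference of either receptor passed the threshold. In neurospheres Rorb was -0.46 ± 0.18 (log2, Bmal1-/- minus wild type, unadjusted p = 0.0373, adjusted p = 0.798, edgeR), with an interval of -0.89 to -0.03. Its groups did not overlap, but how many of all genes separate likewise was not counted. Rora was -0.43 ± 0.34 (adjusted p = 0.798), with an interval of -1.22 to 0.36 and overlapping groups. Of 13968 genes tested in neurospheres, 1 was called, the REV-ERB gene Nr1d2, which is 0.00716%. DESeq2 called 33 genes, and 422 had an unadjusted p under 0.05. Without the library with the most unmapped reads, replicate 1 of the Bmal1-/- neurospheres, the Rora difference was -0.13 and the Rorb difference -0.34. With offsets for transcript length they were -0.20 and -0.19.

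In callosum Rorb was -0.62 ± 0.21 (unadjusted p = 0.0159, adjusted p = 0.251, edgeR), with an interval of -1.09 to -0.15. Both of its Bmal1-/- values, 3.87 and 5.45 CPM, lay below the lowest wild-type value of 6.91 CPM. The share of all genes that separate likewise was not counted here either. Rora was -0.31 ± 0.21 (adjusted p = 0.518, interval -0.79 to 0.16), and 1 wild-type library, replicate 1, carried most of it: without that library the difference was -0.10. Of 14198 genes, 129 (0.909%) were called in callosum, neither receptor among them. The marker sums of astrocytes and of inhibitory neurons lay apart between the genotypes there. Those of striatal neurons and of ependyma and choroid plexus overlapped. The 10 inhibitory neuron markers summed to 1547 to 1773 CPM in Bmal1-/- and 1468 to 1522 in wild type. Of their log2 differences 5 were above 0, with a median of 0.01 and none passing. The 15 astrocyte markers summed to 7822 to 9156 CPM in Bmal1-/- and 6318 to 6740 in wild type, much of it through Gfap, the intermediate filament of reactive astrocytes, at 1860 to 1949 against 356 to 489 CPM. As a list they did not move one way: 8 of 15 were above 0 with a median of 0.05, Gfap rose, and Aldh1l1, a folate enzyme, fell by 0.55 ± 0.10 (adjusted p = 0.0491, edgeR). All 12 striatal neuron markers had lower values in Bmal1-/- (median -1.28, none passing), with sums of 1191 to 1535 CPM against 1351 to 3907 in wild type. The 8 tested markers of ependyma and choroid plexus were also below 0 (median -0.83, none passing), with sums of 112 to 132 against 98.4 to 333 CPM for the 9 listed. No marker of these lists was at 0 in callosum, and their part in the Rora and Rorb values was not tested.

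The genotype difference was compared between the sources with an interaction term. For Rora the difference of differences was 0.10 ± 0.47 (adjusted p = 1.00, edgeR, interval -0.92 to 1.12) and for Rorb -0.17 ± 0.27 (adjusted p = 0.999, interval -0.75 to 0.41). Of 15322 genes, 2 were called (0.0131%). The Rorb interval reaches a 1.68-fold lower ratio, so a like genotype difference in both sources is not shown.

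**Figure D2:**
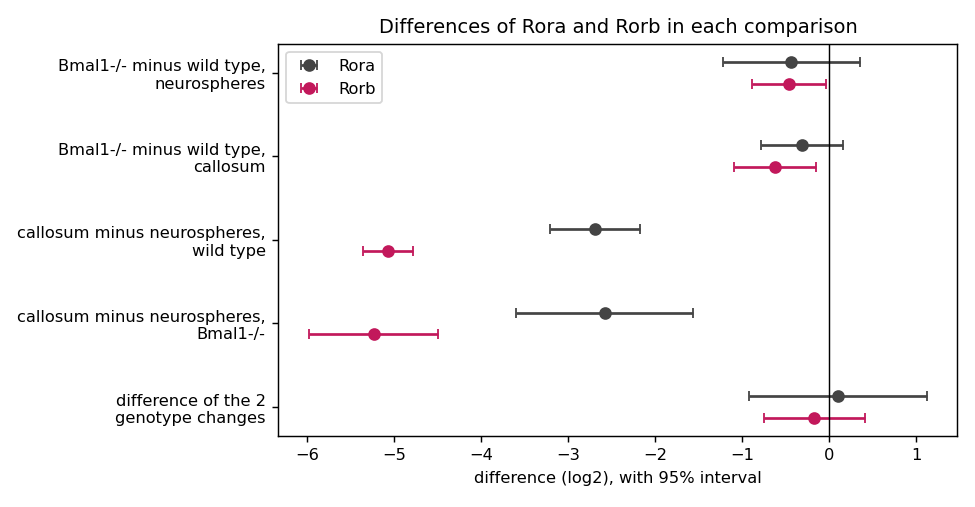
Log2 difference of Rora (grey) and Rorb (red) in the 5 comparisons, with 95% intervals from the edgeR fit. Both source differences lie far below 0 in both genotypes, while the genotype differences lie between -0.62 and -0.31 with intervals that for Rora cross 0.

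Set against 44 other nuclear receptor genes, the RORs moved from the upper ranks to the lower. Ranked by CPM per kb among all 46, Rorb was 3 in wild-type neurospheres, behind Nr1d1 and Thra, the thyroid hormone receptor alpha gene, and level with Nr2e1, the progenitor receptor TLX (22.7 and 22.5 CPM per kb, a gap well within the spread between libraries). Rora ranked 18 there, between Nr2f6 (6.11) and Rarg (3.65). In Bmal1-/- neurospheres the ranks were 5 and 17. In wild-type callosum Rora ranked 30, next to Pparg (0.808 CPM per kb), and Rorb 32, next to Esrrb (0.605), and in Bmal1-/- callosum the ranks were 30 and 33. Among 19365 genes with a count and a length, Rorb stood at the 90.3 percentile of levels in wild-type neurospheres and at the 37.6 in wild-type callosum, and Rora at the 64.6 and the 40.1.

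Rorb and Rora had the lowest log2 values between the sources of all 37 receptor genes tested in wild type. Next came Nr1d2 (-2.35), the orphan receptor gene Nr2c1 (-2.30) and Nr2e1 (-2.28). The order of Rora and Nr1d2 is within their errors. The other receptor genes went both ways: of 35 tested, 22 were higher in callosum, 8 lower, these 3 among them, and 5 did not pass, where 42% of all genes were called higher and 43.8% lower. Their median was 1.06 against -0.06 over all genes. Pgr, the progesterone receptor gene, was higher by 7.19 ± 0.33, from levels of 0.0195 to 2.86 CPM per kb. Nr1h2, the oxysterol receptor LXRbeta, was higher by 1.65 ± 0.10.

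**Figure D3:**
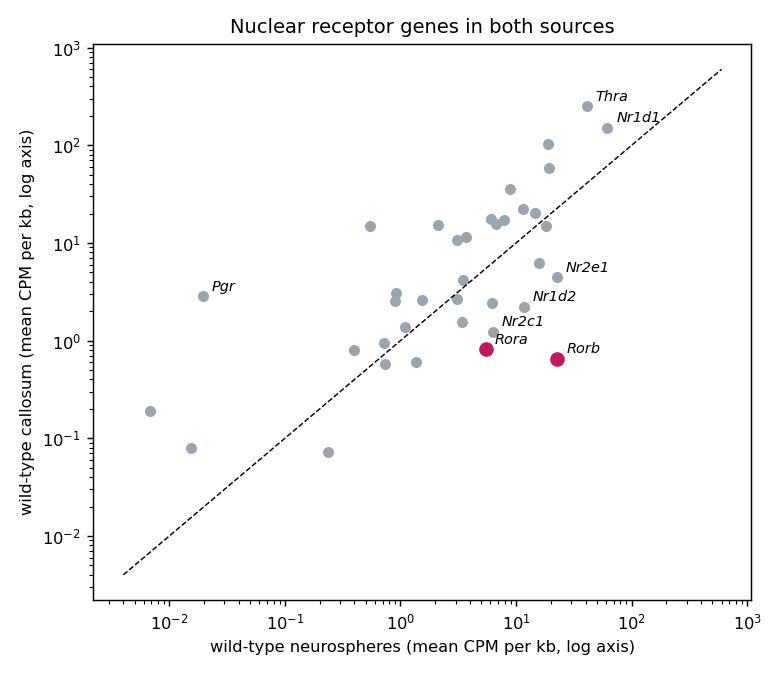
Mean level of each of the 37 nuclear receptor genes tested, in CPM per kb of merged exon on log axes, in wild-type neurospheres (x) and wild-type callosum (y); the dashed line marks equal levels. Rora and Rorb (red) lie farthest below the line, Rorb at 22.7 and 0.651.

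The ratio of the 2 receptors within a library needs no scaling between libraries. Rorb was 3.40 to 5.08 times Rora per kb in wild-type and 3.39 to 6.26 times in Bmal1-/- neurospheres. In callosum it was 0.671 to 0.941 times Rora in wild type and 0.551 to 0.736 times in Bmal1-/-. The 6 neurosphere libraries had a mean log2 ratio of 2.10 ± 0.35 (SD) and the 5 callosum libraries -0.44 ± 0.30, a 5.82-fold lower ratio with no overlap (exact two-sided permutation p = 0.00433, the smallest that 6 against 5 can give). The ratio restates the source differences of the 2 genes given above. How many other gene pairs reach the same p was not counted. Between genotypes the log2 ratio differed by 0.03 in neurospheres (exact two-sided permutation p = 1, smallest possible 0.1) and by -0.35 in callosum (exact two-sided permutation p = 0.4, smallest possible 0.2), and the groups overlapped in both.

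Of the REV-ERB receptor genes, the opponents of the RORs, Nr1d2 fell in the Bmal1-/- libraries of both sources and Nr1d1 fell in callosum. Nr1d2 stood at 60.4, 64.6 and 64.7 CPM in wild-type neurospheres and at 2.97, 3.73 and 4.24 in Bmal1-/-, a fall of 4.11 ± 0.20 (log2, adjusted p = 0.000403, edgeR). Its callosum values were 11.9, 12.03 and 12.1 CPM in wild type and 1.19 and 2.21 in Bmal1-/-, where it fell by 2.80 ± 0.25 (adjusted p = 0.00117). The 2 genotypes were well apart in both sources, and the call held in each under every alternative tried.

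Nr1d1 stood at 381 to 526 CPM in wild-type callosum and at 237 and 245 in Bmal1-/- callosum, a fall of 0.93 ± 0.14 (adjusted p = 0.0205, edgeR). That call was lost without wild-type replicate 3 (adjusted p = 0.160), without Bmal1-/- replicate 1 (0.170) or 2 (0.0635), and in 1 model of all libraries (0.435), with log2 values from -0.95 to -0.90. In neurospheres it was 109.7, 211.6 and 246.2 CPM in wild type and 41.7, 49.3 and 55.7 in Bmal1-/-, a log2 difference of -1.95 ± 0.30 that did not pass by edgeR (adjusted p = 0.218) and passed by DESeq2 (adjusted p = 1.43e-06) and in 1 model of all libraries (0.00934). Those groups did not overlap either, and how many of all genes separate likewise was not counted. Nr1d1 overlaps Thra on the opposite strand, and counts made without strand cannot tell their shared reads apart. Between the sources in wild type the 2 REV-ERB genes went opposite ways, Nr1d1 rising by 1.34 ± 0.26 (adjusted p = 0.000959) and Nr1d2 falling by 2.35 ± 0.11 (adjusted p = 3.47e-08).

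Summed per kb, REV-ERB transcripts were 1.93 to 3.08 times ROR transcripts in wild-type neurospheres and 0.755 to 0.910 times in Bmal1-/-, so that on this scale the larger sum changed with the genotype label. Where the ratio crosses 1 depends on the lengths used and on reads shared by Nr1d1 and Thra, which was not tested. The mean log2 ratio went from 1.33 ± 0.34 to -0.29 ± 0.14 (SD, n = 3 each, exact two-sided permutation p = 0.1, the smallest possible). Callosum held 96.5 to 116 times as much REV-ERB as ROR transcript per kb in wild type and 66.5 to 81.4 times in Bmal1-/-, with log2 means of 6.70 ± 0.14 and 6.20 ± 0.21 (exact two-sided permutation p = 0.2, the smallest possible for 3 against 2). The genotype groups did not overlap in either source, which is the same fact as these smallest possible p-values and adds nothing to them.

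**Figure D4:**
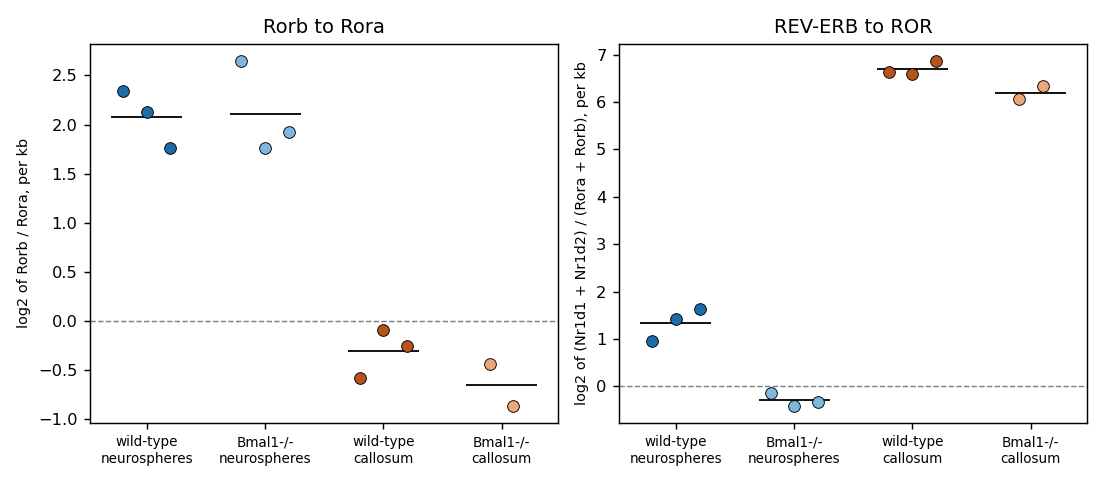
Log2 ratio within each library of Rorb to Rora (left) and of the REV-ERB genes Nr1d1 and Nr1d2 to the ROR genes Rora and Rorb (right), per kb of merged exon; points are libraries, bars are group means and the dashed line marks a ratio of 1. The left ratio is above 0 in all 6 neurosphere libraries and below 0 in all 5 callosum libraries, and the right ratio is below 0 only in the 3 Bmal1-/- neurosphere libraries.

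The 6 clock genes with known ROR elements form the list closest to ROR and REV-ERB action: Arntl, Clock, Npas2, Nfil3, Cry1 and Nr1d1. In callosum 3 rose and 1 fell in the Bmal1-/- libraries, against 0.521% and 0.387% of all genes. Nfil3, a repressor that acts on D-boxes and whose AGGTCA core is printed above, rose by 1.35 ± 0.16 (adjusted p = 0.00593, edgeR), from 8.67, 9.74 and 11.9 CPM to 25.1 and 26.03. Cry1, a repressor of BMAL1, rose by 1.20 ± 0.16 (adjusted p = 0.0103), from 20.4, 20.5 and 26.2 CPM to 44.7 and 57.4. Npas2, which can take the place of CLOCK, rose by 0.98 ± 0.11 (adjusted p = 0.00499), from 134 to 158 CPM up to 269 and 308. Nr1d1 was the gene that fell. Without wild-type replicate 3 the calls of Npas2 (adjusted p = 0.0709) and Cry1 (0.118) were lost, and in 1 model of all libraries those of Npas2 (0.0632) and Nfil3 (0.448), with each gene still higher. Clock (0.25) and Arntl (0.03) did not pass. The list's median was 0.62 against -0.01 over all genes.

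In neurospheres none of the 6 passed by edgeR, and Npas2 was the nearest, at 2.02 ± 0.21 (adjusted p = 0.091), with 7.23, 8.61 and 10.3 CPM in wild type and 29.3, 36.3 and 40.6 in Bmal1-/-. It passed without Bmal1-/- replicate 1 (adjusted p = 0.0184), with no filter on low counts (0.0348), with length offsets (0.0217), in 1 model of all libraries (0.000627) and by DESeq2 (3.00e-12). Cry1 had 0.93 ± 0.18 (adjusted p = 0.532 by edgeR, 0.0259 by DESeq2), Nfil3 0.34, Clock -0.07 and Arntl -0.01. For none of the 6 did the genotype difference itself differ between sources in the interaction test, with the smallest adjusted p at 0.495 for Npas2. Clock genes change over the day and the hour of collection was not given, so its part in these values was not tested.

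**Figure D5:**
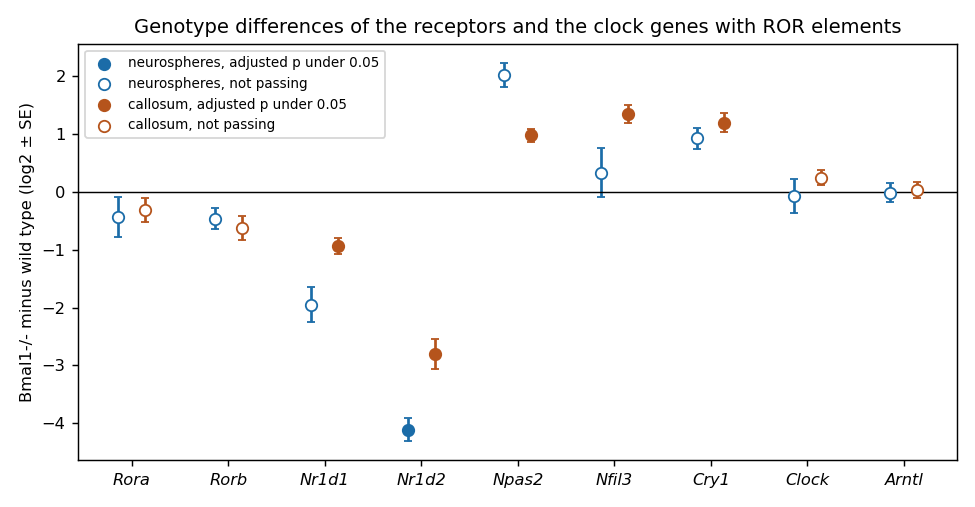
Log2 difference of Bmal1-/- minus wild type, with SE, for the ROR genes, the REV-ERB genes and the other clock genes with ROR elements, in neurospheres (blue) and callosum (orange); filled points have an adjusted p under 0.05. Nr1d2 has the lowest values, -4.11 and -2.80, while Rora and Rorb lie between -0.62 and -0.31 with open points.

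The 6 listed genes that RORalpha is known to switch on in Purkinje cells gave no genotype call by edgeR, with 3 of them tested in neurospheres and 6 in callosum. Calb1, the calcium buffer calbindin, came nearest, at -1.01 ± 0.23 in callosum (adjusted p = 0.104 by edgeR, 0.0222 by DESeq2, 0.0433 with no filter). Between the sources all 6 rose in callosum in both genotypes, where 42% of all genes rose in wild type and 35.1% in Bmal1-/-, with a median of 5.25 in wild type, while Rora itself fell there. Pcp4, a calmodulin regulator, rose by 6.81 ± 0.29 and Itpr1, a calcium release channel, by 3.68 ± 0.10. Of these genes, Pcp4, Itpr1 and Calb1 are made by many neurons besides Purkinje cells. All 12 cortical projection neuron markers also rose, with a median of 9.38, and the part of such neurons in the list's rise was not tested.

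The metabolic and inflammatory ROR targets were mostly too low to test: 2 of 7 were tested in neurospheres and 3 in callosum, with no genotype call. Apoa1, the main protein of HDL, rose by 4.55 ± 0.59 in wild-type callosum against neurospheres. Cyp7b1, an oxysterol hydroxylase, had genotype differences of 0.14 ± 0.29 in neurospheres and 0.27 ± 0.30 in callosum.

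Among cofactors, none of 8 coactivators and none of 7 corepressors passed by genotype in either source. The coactivators had a median of -0.45 in neurospheres, near the values of Rora and Rorb there, and -0.09 in callosum, and the corepressors -0.39 and 0.05. Between the sources in wild type, 4 coactivators rose and 3 fell, and 7 of 8 called is near the 85.8% over all genes. Ppargc1a, the coactivator PGC-1alpha that works with RORalpha in liver and muscle, fell by 2.88 ± 0.19 in callosum (adjusted p = 3.72e-07, edgeR), and Med1, a Mediator subunit that contacts nuclear receptors, fell by 1.63 ± 0.09. Of the corepressors 2 rose and 5 fell, against 42% and 43.8% of all genes: Hr, the corepressor hairless that binds RORalpha directly, rose by 4.86 ± 0.14 (adjusted p = 4.75e-09), whereas Ncor1, which REV-ERB needs to repress, fell by 0.83 ± 0.13 (-0.13 and not passing with length offsets) and Tbl1xr1, of the same complex, by 3.25 ± 0.10.

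Enzymes that make or break sterol ligands of the RORs differed singly between the sources, as most genes did. Of 6 genes, 4 were tested in wild type and 3 rose in callosum. There 42% of all genes were called higher and 85.8% one way or the other. The fourth gene, Cyp7b1, was at -0.01 ± 0.30. Cyp46a1, the neuronal cholesterol 24-hydroxylase, rose by 4.68 ± 0.15 (adjusted p = 5.8e-09, edgeR), Sult2b1, which makes cholesterol sulphate, by 6.47 ± 0.35 and Cyp27a1, the sterol 27-hydroxylase, by 3.08 ± 0.26. None passed by genotype, where Cyp46a1 had 0.10 ± 0.22 in neurospheres and 0.11 ± 0.14 in callosum.

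The genes whose pattern was most like each receptor were found by the root mean square (RMS) difference of centred log2 CPM over the 11 libraries, among 15595 genes. For Rora these were Rsf1, a chromatin remodelling subunit, Cc2d2a, a protein of the ciliary transition zone, 2610203C22Rik and Tmem170b, with RMS differences of 0.17 to 0.19. For Rorb they were Smc5, of the SMC5/6 complex, Tmtc3, an endoplasmic reticulum protein, Rps6ka6, a kinase, and Nedd1, a centrosomal protein, at 0.16 to 0.24. Smc5 stood at means of 137, 114, 4.11 and 2.12 CPM in the order wild-type and Bmal1-/- neurospheres, then wild-type and Bmal1-/- callosum, against the 250.9, 182.1, 7.21 and 4.66 of Rorb. Rora and Rorb were 1.29 apart, and Rorb stood at place 6958 in likeness to Rora, Rora at place 1982 in likeness to Rorb. Likeness over all libraries is set mainly by the step between the sources. In callosum 2610203C22Rik had 1 to 2 counts per wild-type library and 1 per Bmal1-/- library, under the 3-count mark given above. Its likeness to Rora there depends on the prior count of 2. Its fitted source difference in wild type was -3.63 ± 0.57 (log2), against -2.69 for Rora.

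Within the 5 callosum libraries alone, the nearest genes to Rora were Fam189a1, Rsad1, Parva and Camk2a, at RMS differences of 0.03 to 0.04. Camk2a, a kinase of excitatory neurons, was highest in the same wild-type library as Rora, at 7923 CPM against a median of 6009, as Rora was at 13.6 against 9.71. The nearest to Rorb were Il15ra, Gsta4, Tfb1m and Kcnu1, at 0.06 to 0.07. Gsta4, a glutathione transferase, had means of 20.5 CPM in wild-type and 12.3 in Bmal1-/- callosum. With 5 libraries and 15595 genes, close matches to any gene are easy to find.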

How the data were processed

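The authors deposited, for each library, a table of raw read counts per gene symbol with an unstranded and 2 strand-specific columns, and STAR 2.7.1a and mm10 are named in the submitters' processing notes. Per the labels' protocols, RNA was taken with TRIzol, enriched with oligo-dT or by rRNA depletion (which of them is not stated) and sequenced on a BGISEQ-500. The unstranded counts were used, since the strand columns split 49.6 to 50.8%. The 4 rows of reads on no gene were left out. Fits used edgeR 4.0.16 (quasi-likelihood test, TMM scaling, filterByExpr) in R 4.3.3 on the libraries of each comparison over all genes, with Benjamini-Hochberg adjustment at 0.05. The model was tested on simulated data, without the interaction. True log2 changes of 1 were recovered in 22% of cases for genotype in neurospheres and 69% in callosum. Between the sources 73% were recovered in wild type and 7% in Bmal1-/-. For changes of 2 the 4 shares ran from 84 to 96%. For genotype in callosum 17 unchanged genes were also called, beside 69 and 92 changed ones. Between the sources in wild type 18 were, beside 73 and 96. Both are a higher share of false calls than the 0.05 aimed at. The neurosphere genotype fit and the Bmal1-/- source fit had 6 false calls each. Likeness used log2 CPM with a prior count of 2, and exon lengths came from GENCODE M21, which matched 98.6% of symbols. Promoter windows were credited to RefSeq. Ratios within libraries were compared by exact permutation in Python 3.11.15. The text names Rora and Rorb in every comparison, up to 4 passing genes of each list by smallest p, the REV-ERB genes always, and the 4 most alike genes. A gene named outside that rule was chosen after its values were seen. The members and the 21 gene lists were chosen with earlier results of these data known. Alternatives were RLE scaling, no filter, DESeq2 1.42.0, strand-column sums, length offsets, 1 model of all libraries, a replicate block and leaving out each library. Intervals on counts cover counting error only. Other ROR genes and 1 further gene of a list are not reported here.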

Additional observations from a re-analysis of the deposited data

How the results depend on the processing

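Of 147 recomputed values of 11 results, the tests of Rora and Rorb and of their ratio between the sources, 142 kept their direction and their side of the threshold, none gained or lost a call and 5 changed sign. The 4 genotype tests of ratios cannot pass at these numbers of libraries, so only their direction counts, and 2 of their 30 values changed sign. Without wild-type neurosphere replicate 3 and without Bmal1-/- neurosphere replicate 1, the log2 genotype difference in the ratio of Rorb to Rora in neurospheres, 0.03 in the report, was -0.13 and -0.24 (range with each library left out -0.24 to 0.21). The difference of Rora genotype differences between sources, 0.10, was -0.053 with length offsets, -0.08 without wild-type neurosphere replicate 3, -0.19 without Bmal1-/- neurosphere replicate 1 and -0.02 without wild-type callosum replicate 2 (range -0.19 to 0.31), and that of Rorb was 0.053 without Bmal1-/- callosum replicate 2 (range -0.43 to 0.053). The cause was not tested. With each library left out, the genotype differences ran from -0.63 to -0.13 for Rora and -0.56 to -0.34 for Rorb in neurospheres, and from -0.43 to -0.10 and -0.88 to -0.38 in callosum. The same alternatives, run for part of the other named genes after seeing the data, gave 475 values of 37 results: 440 kept direction and side, 9 lost a call and 10 gained one, as given in the report, and 16 changed sign, none of them called. The callosum calls of Gfap and Aldh1l1 were not recomputed. With length offsets the neurosphere genotype values were 0.18 for Clock, 0.15 for Arntl, -0.054 for Cyp7b1 and -0.025 for Cyp46a1. With libraries left out they ran from -0.056 to 0.66 for Nfil3, -0.24 to 0.22 for Clock, -0.1 to 0.072 for Arntl, -0.0044 to 0.36 for Cyp7b1 and -0.11 to 0.23 for Cyp46a1, and in callosum -0.13 to 0.19 for Arntl and -0.11 to 0.32 for Cyp46a1. Counts of all genes called varied more: 1 to 33 in neurospheres (1 in the report, 33 by DESeq2, 19 with 1 model of all libraries), 27 to 322 in callosum (129 in the report, 322 by DESeq2, 224 with no filter, 33 with 1 model, 27 without wild-type replicate 3) and 1 to 37 for the interaction (2 in the report, 37 by DESeq2). Leaving out a callosum library can leave 1 Bmal1-/- sample, which is then assumed to vary like the wild-type group.

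Whether the replicate numbers pair the samples could not be settled, since deviations were taken from means of few libraries. Deviations of same-numbered neurosphere libraries correlated at 0.280, -0.013 and 0.314, and those of differently numbered ones at -0.388 to 0.274. Same-numbered callosum libraries correlated at 0.050 and 0.012, where the deviations of 2 Bmal1-/- libraries mirror each other by construction. With the replicate block, the genotype differences were -0.50 (Rora) and -0.47 (Rorb) in neurospheres and -0.35 and -0.66 in callosum, the source differences -2.68 and -5.07 in wild type and -2.30 and -5.14 in Bmal1-/- libraries, and the interaction 0.19 and -0.13. Arntl in callosum was -0.043 with the block, which changed no call among the genes recomputed, and genes called in neurospheres went from 1 to 2. Callosum values of Rorb rest on 56 to 112 counts per library.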
